A study of Mus musculus with 9 samples.

Results

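The genes described here are 10 targets of the Ras-ERK pathway that act as its feedback brakes or as its transcriptional output: Spry1, Spry2, Spry4, Spred1, Dusp4, Dusp6, Etv1, Etv4, Etv5 and Phlda1. They were chosen by name, from knowledge of the pathway but with earlier results of these data known. They were matched by Ensembl identifier to mouse symbols. All 10 were found among the 46517 gene identifiers counted, and all 10 were among the 17947 genes with enough counts to be tested. When a receptor tyrosine kinase or Ras is active, the kinases Raf, MEK and ERK are switched on in turn, and ERK induces genes whose products damp the same pathway. Sprouty and Spred proteins act upstream on Ras and Raf, Dusp phosphatases remove the activating phosphates from ERK, and the PEA3 factors Etv1, Etv4 and Etv5 carry part of the transcriptional response. The RNA of such genes is widely read as a measure of ERK pathway output, in gliomas as in other tumours.

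Glioblastoma tissue had been sequenced in bulk from mouse models meant to stand for different cells of origin. Each of 3 models, Synapsin-cre, NG2-creERTM and Nestin-creERT2, had 3 libraries. Synapsin-cre is named for a promoter used in neurons, NG2-creERTM for the promoter of Cspg4, used in oligodendrocyte precursors and pericytes, and Nestin-creERT2 for a promoter used in neural stem and progenitor cells, and the ERTM and ERT2 forms of Cre need tamoxifen. Every animal was of mixed background, and the labels used here do not give the tumour-driving alleles, the tamoxifen schedule, or age and sex. Whether libraries of a model came from separate animals is not stated either. A p-value here therefore speaks of the spread between these libraries alone, which may not be the spread between animals. In bulk tissue, fewer cells of a type and less RNA per cell cannot be told apart.

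The libraries held 23557398 to 41099967 counts in genes, and the 10 genes had between 178 and 23424 counts each in a library, so counting error was small beside the differences between libraries. Synapsin-cre replicate 1 stood apart, in that its Spearman correlations across genes with the other 8 were 0.778 to 0.884, while those 8 had 0.891 to 0.957 among themselves. Its summed level of 10 neuronal markers was 7788 CPM (counts scaled to a common total with trimmed-mean factors), against 466.7 to 1879 CPM in the other 8 libraries, and 8 of the 10 markers were highest there. Its summed level of 8 proliferation genes was 129.8 CPM, against 1148 to 2467 CPM elsewhere, and all 8 were lowest there. Its sum was also the highest for 8 astrocyte markers (7513 CPM, against 451.7 to 5379), though only 3 of the 8 were highest there. The same held for 9 microglia and macrophage markers (852.4 CPM, against 89.9 to 534.3), of which 7 were highest there. The sum was the lowest for 8 oligodendrocyte precursor markers (1117 CPM, against 2819 to 11090), of which 6 were lowest there. Results that rest on this library are given with and without it. NG2-creERTM also differed from Nestin-creERT2 in such lists, with neuronal sums of 483.7 to 776.8 CPM against 1457 to 1879 CPM, and sums of 8 Schwann and neural crest markers of 1979 to 5184 CPM against 180.8 to 934.3 CPM. Nestin-creERT2 replicate 1 had a sum of 6 choroid plexus markers of 6040 CPM, against 2.14 to 16.5 CPM in the other 8 libraries, where 3 of the 6 were at 0 in at least 1. No marker of the other lists named here was at 0 in any library. The part of tissue composition in the results below was not tested.

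Spry4 was left out of the promoter search, and windows from 250 bases before to 50 bases after a gene's start were used from RefSeq (GRCm38.p6) for 6 of the 10 genes. They were searched on both strands for the 4 octamers TGAATGAA, TGAATGGA, TCAATGAA and TCAATGGA, which are bound by Capicua, a repressor of PEA3, Sprouty and Dusp genes that ERK switches off. At least 1 octamer was found in 2 of the 8 windows of these 6 genes, those of Dusp6 and Spry2, and in 3.84% of the 32851 windows of all genes. Those windows are printed below because they hold the octamers, and that of Spry1 because its RNA formed the closest pair with that of Dusp6 and it held none. All are written 5′ to 3′ in the direction of the gene, at chr10:99262981-99263280 on the plus strand for Dusp6, at chr14:105896770-105897069 on the minus strand for Spry2, and at chr3:37639697-37639996 on the plus strand for Spry1. Capitals mark the octamers, which read on the opposite strand as TCAATGGA for Dusp6 and TCAATGAA for Spry2.
Dusp6: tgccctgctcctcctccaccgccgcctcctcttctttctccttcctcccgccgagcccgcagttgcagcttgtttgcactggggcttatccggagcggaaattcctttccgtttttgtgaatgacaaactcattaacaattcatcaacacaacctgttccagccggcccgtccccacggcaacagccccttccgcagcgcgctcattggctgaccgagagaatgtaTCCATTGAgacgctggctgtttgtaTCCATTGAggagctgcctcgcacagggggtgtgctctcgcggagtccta
Spry2: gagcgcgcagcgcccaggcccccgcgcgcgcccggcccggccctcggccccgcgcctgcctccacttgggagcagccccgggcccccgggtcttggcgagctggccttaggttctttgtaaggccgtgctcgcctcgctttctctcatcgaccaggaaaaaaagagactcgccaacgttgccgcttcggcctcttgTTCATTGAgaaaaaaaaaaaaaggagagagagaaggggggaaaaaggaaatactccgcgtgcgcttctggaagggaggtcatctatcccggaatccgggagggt
Spry1: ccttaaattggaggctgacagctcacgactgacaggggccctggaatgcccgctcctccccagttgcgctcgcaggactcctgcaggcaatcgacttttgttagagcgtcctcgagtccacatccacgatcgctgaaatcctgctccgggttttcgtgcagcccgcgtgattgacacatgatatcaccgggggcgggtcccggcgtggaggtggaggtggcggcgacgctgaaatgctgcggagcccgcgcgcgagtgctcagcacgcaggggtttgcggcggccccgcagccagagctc
The Dusp6 octamers lay at positions -24 to -17 and 2 to 9 from the gene's start, and the Spry2 octamer at -54 to -47. The octamer TCAATGGA was present in 0.67% of all windows and TCAATGAA in 0.749%. The ETS core GGAAGT was found in 1 window each of Etv1 and Etv5, against 23.8% of all windows. The AP-1 site TGANTCA (7.81% of all windows), the cyclic AMP element TGACGTCA (1.79%) and the CArG box (1.63%) were found in none of the 8 windows of the 6 genes. These are matches of letters, and binding was not measured. Capicua's own gene, Cic, which was chosen for mention after its values were seen, had 421, 381 and 406 CPM in the Synapsin-cre libraries, 277, 204 and 208 in NG2-creERTM, and 312, 158 and 282 in Nestin-creERT2. All 3 Synapsin-cre libraries lay above the other 6, and the share of all genes with that order was not counted. Synapsin-cre over NG2-creERTM had a log2 fold change of 0.81 (SE 0.33), with an adjusted p of 0.374 in edgeR's quasi-likelihood test of all genes.

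Every one of the 10 genes was expressed in every library, and levels of most of them differed widely between libraries of the same model. The lowest library of a gene had 7.88 CPM (Dusp4) or more, and the highest library exceeded the lowest 2.54-fold for Spred1, the steadiest, and 17.2-fold for Phlda1, the most variable. Without Synapsin-cre replicate 1 these ratios were 1.94 and 12.5. Levels of different genes were set side by side per kilobase of exon, a rough scale. Phlda1 was highest, with a mean of 91.8 CPM per kb over the 9 libraries. Spry2 (50.5), Dusp6 (43.8), Etv4 (37.8), Spry1 (35.8), Etv5 (34.5), Spred1 (27.3), Dusp4 (17.1), Spry4 (13.9) and Etv1 (6.78 CPM per kb) followed. Each gene overlapped its neighbours in that order across libraries. Exon length was that of all annotated exons joined, 13296 bases for Etv1 and 2087 to 6784 for the others. Which transcripts were expressed was not examined, so the order depends in part on annotation.

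**Figure D1:**
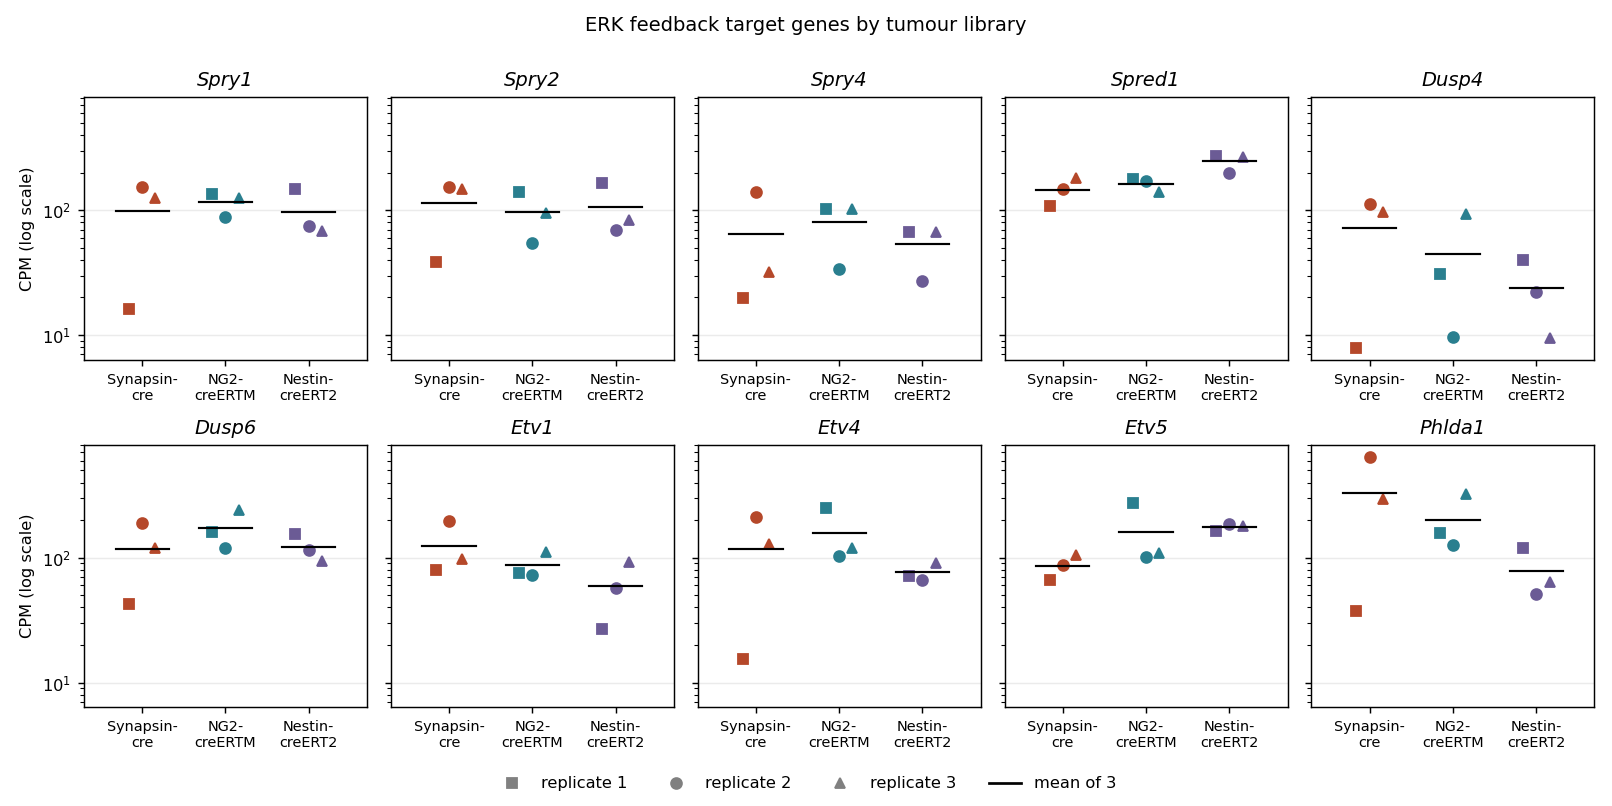
Level of each of the 10 genes in CPM on a log axis (points: libraries, with the replicate given by the marker shape; bars: mean of 3) in Synapsin-cre, NG2-creERTM and Nestin-creERT2. Synapsin-cre replicate 1 is the lowest library for 9 genes, and only in Spred1 do all 3 Nestin-creERT2 libraries lie above the other 6.

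The Sprouty genes encode adaptors that are phosphorylated after growth factor stimulation and hold back signalling from receptors to Raf. Spry1 (ENSMUSG00000037211, GRCm38 chr3:37639947-37644598, plus strand) had 16.2, 154 and 125 CPM in the Synapsin-cre libraries, 134, 88.2 and 126 in NG2-creERTM, and 148, 75.1 and 68.7 in Nestin-creERT2. One Synapsin-cre library was far below all others and the remaining 8 spanned 68.7 to 154 CPM with the models overlapping. Its log2 fold changes were -0.24 (SE 0.67) for Synapsin-cre over NG2-creERTM, 0.02 (SE 0.67) for Synapsin-cre over Nestin-creERT2 and 0.26 (SE 0.67) for NG2-creERTM over Nestin-creERT2, each smaller than its error. Without Synapsin-cre replicate 1 the first of these was 0.26 (SE 0.39), of the opposite sign. Spry1 overlaps Gm42922 on the other strand, and at most 1.67% of its reads in a library were on that strand.

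Spry2 (ENSMUSG00000022114, GRCm38 chr14:105891947-105896819, minus strand) had 38.2, 154 and 148 CPM in the Synapsin-cre libraries, 141, 54.9 and 95.9 in NG2-creERTM, and 165, 69.1 and 82.8 in Nestin-creERT2. Each model held at least 1 library above 140 CPM and 1 below 70 CPM, so the models overlapped widely. Spry4 (ENSMUSG00000024427) had 19.9, 141 and 31.8 CPM in the Synapsin-cre libraries, 103, 34.0 and 103 in NG2-creERTM, and 66.8, 26.9 and 67.5 in Nestin-creERT2. It was high in 1 Synapsin-cre and 2 NG2-creERTM libraries and low in 1 library or more of every model, and none of its comparisons exceeded its SE (0.74 in each). Leaving out Synapsin-cre replicate 2 took its log2 fold change of Synapsin-cre over NG2-creERTM to -1.67, from -0.31 with all 9 libraries.

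Spred1 encodes a membrane protein that brings the Ras-GAP neurofibromin to Ras, and it was the inhibitor that separated the models most clearly. Spred1 (ENSMUSG00000027351, GRCm38 chr2:117121374-117182279, plus strand) had 108, 147 and 181 CPM in the Synapsin-cre libraries, 178, 171 and 141 in NG2-creERTM, and 274, 199 and 267 in Nestin-creERT2. All 3 Nestin-creERT2 libraries lay above all other 6, a pattern found in 2.41% of the genes tested. Spred1 had a mean level in CPM of 146 ± 36.8 for Synapsin-cre, 163 ± 19.6 for NG2-creERTM and 246 ± 41.5 for Nestin-creERT2 (SD, n = 3 each). Its log2 fold change was -0.76 (SE 0.29) for Synapsin-cre over Nestin-creERT2, with an adjusted p of 0.421, and -0.59 (SE 0.29) for NG2-creERTM over Nestin-creERT2, with an adjusted p of 0.487 in edgeR (quasi-likelihood, Benjamini-Hochberg). Neither passed the threshold of 0.05. Nestin-creERT2 replicate 1, the library with the high choroid plexus sum, held the highest Spred1 and Spry2 and the lowest Etv1 of the 9 libraries, and without it these Spred1 values were -0.71 and -0.51. Spred1 and Etv5 had their highest means in Nestin-creERT2, where Spry1, Spry4, Dusp4, Etv1, Etv4 and Phlda1 had their lowest. For Spry1 the margin was small (97.3 CPM, against 98.3 in Synapsin-cre).

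The Dusp genes encode MAP kinase phosphatases, Dusp6 a cytoplasmic one specific for ERK and Dusp4 a nuclear one. Dusp6 (ENSMUSG00000019960, GRCm38 chr10:99263231-99267489, plus strand) had 42.2, 188 and 120 CPM in the Synapsin-cre libraries, 161, 119 and 239 in NG2-creERTM, and 154, 115 and 94.8 in Nestin-creERT2. It was lowest in Synapsin-cre replicate 1 and highest in NG2-creERTM replicate 3, and every pair of models overlapped. Dusp6 had a mean level in CPM of 117 ± 73.1 for Synapsin-cre, 173 ± 61.3 for NG2-creERTM and 121 ± 29.9 for Nestin-creERT2 (SD, n = 3 each).

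Dusp4 (ENSMUSG00000031530, GRCm38 chr8:34807297-34819894, plus strand) had 7.88, 112 and 96.4 CPM in the Synapsin-cre libraries, 30.9, 9.68 and 92.7 in NG2-creERTM, and 39.8, 22.2 and 9.43 in Nestin-creERT2. Synapsin-cre replicates 2 and 3 and NG2-creERTM replicate 3 held 92.7 CPM or more, and the other 6 libraries held 39.8 CPM or less, so the high libraries did not follow model. The log2 fold change of Synapsin-cre over Nestin-creERT2 was 1.60 (SE 1.01), with an adjusted p of 0.604 in edgeR, and 2.12 (SE 0.83), with an adjusted p of 0.184, without Synapsin-cre replicate 1. For NG2-creERTM over Nestin-creERT2 it was 0.90 (SE 0.996), and -0.23 without NG2-creERTM replicate 3.

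The PEA3 factors are ETS-family activators that bind the GGAAGT core and are induced by ERK in glia and neural progenitors. Etv1 (ENSMUSG00000004151, GRCm38 chr12:38779380-38870484, plus strand) had 79.8, 196 and 98.4 CPM in the Synapsin-cre libraries, 75.9, 72.8 and 112 in NG2-creERTM, and 26.7, 56.8 and 93.2 in Nestin-creERT2. It was the only one of the 10 genes not lowest in Synapsin-cre replicate 1, where it stood at the middle of the 9. Its log2 fold change of Synapsin-cre over Nestin-creERT2 was 1.08 (SE 0.50), with an adjusted p of 0.471 in edgeR, and the models overlapped.

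Etv4 (ENSMUSG00000017724, GRCm38 chr11:101769742-101785371, minus strand) had 15.4, 211 and 128 CPM in the Synapsin-cre libraries, 250, 103 and 119 in NG2-creERTM, and 71.6, 66.6 and 91.4 in Nestin-creERT2. All 3 NG2-creERTM libraries lay above all 3 Nestin-creERT2 libraries, while Synapsin-cre held the lowest library of the 9 and the second highest. For NG2-creERTM over Nestin-creERT2 the log2 fold change was 1.04 (SE 0.74), with an adjusted p of 0.633 in edgeR.

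Etv5 (ENSMUSG00000013089, GRCm38 chr16:22381309-22439719, minus strand) had 66.4, 86.7 and 105 CPM in the Synapsin-cre libraries, 276, 101 and 109 in NG2-creERTM, and 165, 186 and 180 in Nestin-creERT2. All 3 Synapsin-cre libraries lay below all 3 Nestin-creERT2 libraries, and NG2-creERTM spanned both, with replicate 1 the highest of the 9. Its mean level in CPM was 86.0 ± 19.3 for Synapsin-cre, 162 ± 99.1 for NG2-creERTM and 177 ± 11.04 for Nestin-creERT2, the model with the least spread (SD, n = 3 each). The log2 fold change of Synapsin-cre over Nestin-creERT2 was -1.04 (SE 0.41), with an adjusted p of 0.426, and that of Synapsin-cre over NG2-creERTM was -0.91 (SE 0.41), with an adjusted p of 0.392 in edgeR. Without NG2-creERTM replicate 1, the highest library, that second value was -0.32, with an adjusted p of 0.824. In Synapsin-cre over Nestin-creERT2 the closely related Etv4 had a log2 fold change of the other sign, 0.63 (SE 0.73), though -0.12 without Synapsin-cre replicate 2, and the difference between the genes was not tested.

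Phlda1 encodes a pleckstrin homology-like domain protein induced by ERK and reported to restrain receptor signalling. Phlda1 (ENSMUSG00000020205, GRCm38 chr10:111506286-111508645, plus strand) had 37.7, 646 and 297 CPM in the Synapsin-cre libraries, 159, 126 and 322 in NG2-creERTM, and 119, 51.6 and 63.6 in Nestin-creERT2. All 3 NG2-creERTM libraries lay above all 3 Nestin-creERT2 libraries. Of the Synapsin-cre libraries, 2 were also above Nestin-creERT2, and replicate 1 was the lowest of the 9. Phlda1 had a mean level in CPM of 327 ± 305 for Synapsin-cre, 202 ± 105 for NG2-creERTM and 78.1 ± 36.0 for Nestin-creERT2 (SD, n = 3 each).

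Phlda1 had the largest fold change of the 10 genes, and its size moved with single libraries of Synapsin-cre. Its log2 fold change of Synapsin-cre over Nestin-creERT2 was 2.07 (SE 0.84), with an adjusted p of 0.432 in edgeR. Without Synapsin-cre replicate 1 it was 2.59 (SE 0.54), with an adjusted p of 0.0535, and without Synapsin-cre replicate 2, the highest, it was 1.07. In a fit of these 2 models alone that also left out Synapsin-cre replicate 1, chosen after the data were seen, it was 2.60 (SE 0.50), with an adjusted p of 0.0498. That was the only call among the 10 genes in any fit, beside calls for 2.42% of the genes tested in that fit. Over the 19 alternatives tried the adjusted p ranged from 0.0498 to 0.817, and the direction was the same in all. For NG2-creERTM over Nestin-creERT2 the log2 fold change was 1.37 (SE 0.82), with an adjusted p of 0.571. Phlda1 overlaps the antisense lincRNA Gm28592, and unstranded counts gave means of 116, 78.0 and 29.1 CPM in Synapsin-cre, NG2-creERTM and Nestin-creERT2, with log2 fold changes close to the stranded ones.

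In Synapsin-cre over NG2-creERTM, 0 of the 10 genes passed an adjusted p of 0.05 in edgeR's quasi-likelihood test, where 0% of all genes did. At an unadjusted p under 0.05 there were also 0 of 10, against 12.8% of all genes, and the models overlapped in all 10, while 13.8% of all genes did not overlap. The log2 fold change was positive for 4 of the 10 genes, and 54.6% of all genes, with a median of -0.20 for the 10 and 0.08 for all genes. Without Synapsin-cre replicate 1 it was positive for 8 of 10 and the medians were 0.19 and -0.01.

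In Synapsin-cre over Nestin-creERT2, 0 of the 10 genes passed, again beside 0% of all genes. At an unadjusted p under 0.05 there were 3 of 10 (10.8% of all genes). Spred1 and Etv5 were lower in Synapsin-cre, as were 4.05% of all genes, and Phlda1 was higher, as were 6.74%. For Spred1 and Etv5 the models did not overlap, a pattern that 6.26% of all genes showed in that direction. The log2 fold change was positive for 7 of the 10 genes (57.8% of all genes), with a median of 0.18 for the 10 and 0.13 for all genes. Without Synapsin-cre replicate 1 the medians were 0.60 and 0.01, and 4 of 10 genes had an unadjusted p under 0.05, all higher in Synapsin-cre (Dusp4, Etv1, Etv4 and Phlda1), as did 9.33% of all genes in that direction. In that fit Spred1 and Etv5 no longer did, and 0 of 10 and 1.48% of all genes passed the adjusted threshold.

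In NG2-creERTM over Nestin-creERT2, 0 of the 10 genes passed, beside 0% of all genes, and 0 of 10 had an unadjusted p under 0.05, against 11.3%. Spred1 was lower without overlap, as were 14.2% of all genes, and Etv4 and Phlda1 were higher without overlap, as were 11% of all genes. The log2 fold change was positive for 7 of the 10 genes (50.9% of all genes), with a median of 0.54 for the 10 and 0.02 for all genes. In the fit without Synapsin-cre replicate 1, 0.671% of all genes and 0 of the 10 passed, and 3 of 10 had an unadjusted p under 0.05 (18.8% of all genes), Etv4 and Phlda1 higher and Spred1 lower in NG2-creERTM. Fitting these 2 models alone gave the same 3 genes at that cutoff (19.7% of all genes) and called 1.39% of all genes and 0 of the 10, with Phlda1 at an adjusted p of 0.152 and Etv4 at 0.178. The 3 comparisons share libraries and are not independent of each other. The SE of the 10 genes ran from 0.29 to 1.01 on the log2 scale over the 3 comparisons. DESeq2 called 446, 497 and 623 of all genes in Synapsin-cre over NG2-creERTM, Synapsin-cre over Nestin-creERT2 and NG2-creERTM over Nestin-creERT2, and limma voom called 0 in each, and neither called any of the 10.

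**Figure D2:**
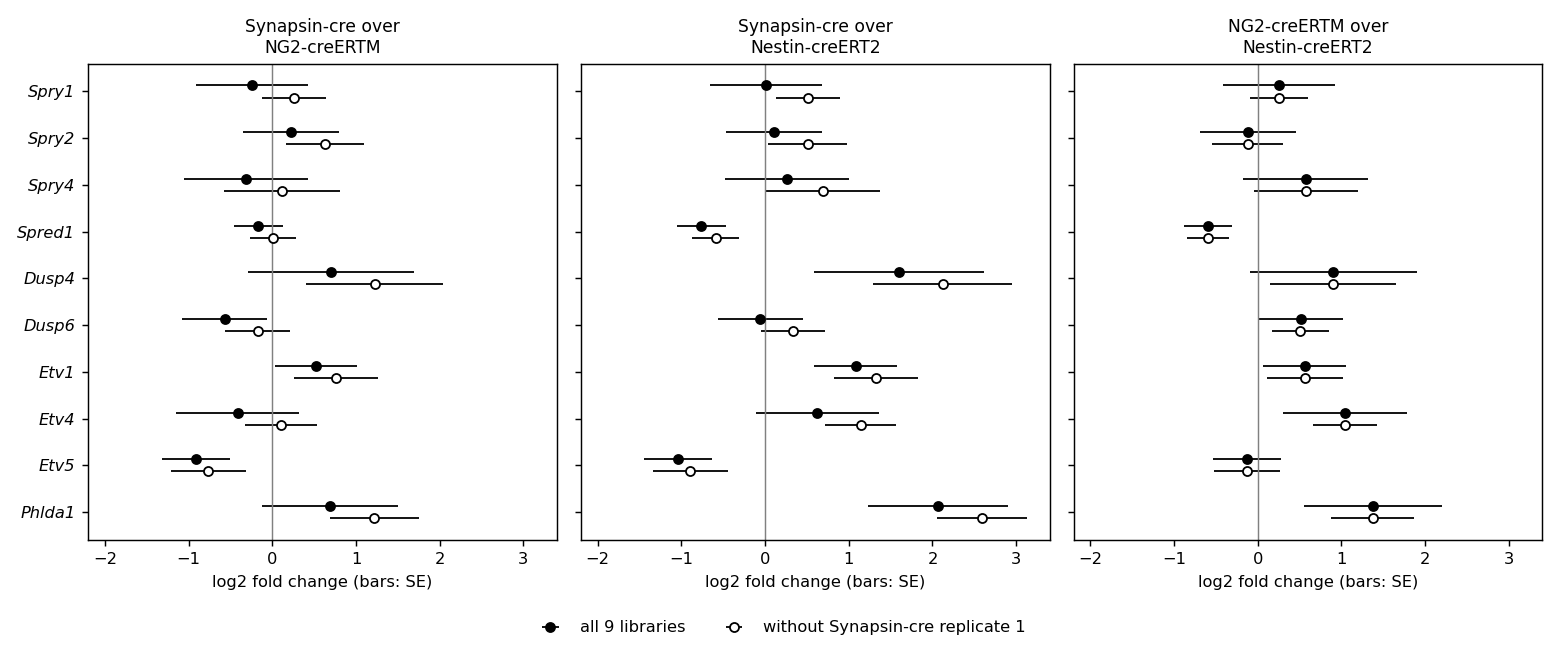
Log2 fold change of each gene (points) with its SE (bars) in Synapsin-cre over NG2-creERTM, Synapsin-cre over Nestin-creERT2 and NG2-creERTM over Nestin-creERT2, from the fit of all 9 libraries (filled) and without Synapsin-cre replicate 1 (open). Phlda1 lies farthest right in the comparisons with Nestin-creERT2, at 2.07 and 1.37 with all 9 libraries, and Spred1 lies left of 0 in both.

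Differences between libraries were larger and were shared by most of the 10 genes. In Synapsin-cre replicate 1, 9 of the 10 genes had their lowest level of the 9 libraries, against 23.4% of all genes. Spry1 was 7.77-fold and Etv4 7.21-fold below the median of the other 8 libraries there, Dusp4 was 4.48-fold and Phlda1 3.78-fold below it, and Spred1 was 1.67-fold below it. The neuronal and proliferation sums given above are those of the same library, and their part in these low levels was not tested. At the other end, Synapsin-cre replicate 2 had the highest level of 5 genes (Spry1, Spry4, Dusp4, Etv1 and Phlda1), against 9.77% of all genes, and one of the top 2 levels of 8. NG2-creERTM replicate 3 had one of the top 2 levels of 4 genes. Within a model the mean standardised log2 CPM of the 10 genes ran from -1.59 to 0.80 in Synapsin-cre, from -0.38 to 0.58 in NG2-creERTM and from -0.32 to 0.22 in Nestin-creERT2.

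**Figure D3:**
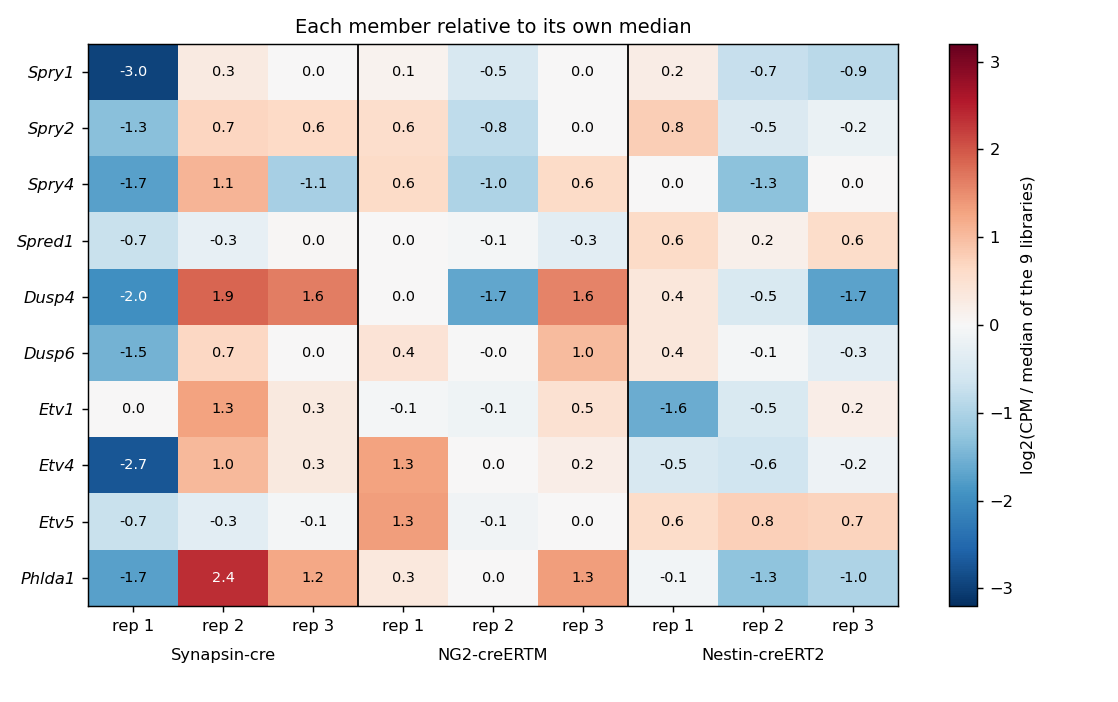
Level of each gene in each library as log2 of the ratio to that gene's own median over the 9 libraries, with red above and blue below the median and the value printed in each cell. The column of Synapsin-cre replicate 1 is blue for 9 genes, while Spred1 and Etv5 are red in all 3 Nestin-creERT2 libraries.

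Upstream of ERK, some libraries carried extreme levels of a receptor, and these genes were chosen for mention after their values were seen. Met, the hepatocyte growth factor receptor, reached 9037 CPM in Synapsin-cre replicate 2, reached 5707 CPM in NG2-creERTM replicate 3 and lay at 4.34 to 40.1 CPM elsewhere. Those libraries are the ones in which Phlda1 was highest (646 and 322 CPM) and Dusp4 was high (112 and 92.7 CPM). Synapsin-cre replicate 3, with 24.5 CPM of Met, also had high Dusp4 (96.4 CPM) and Phlda1 (297 CPM). Egfr, the epidermal growth factor receptor, had 193 to 1643 CPM in Nestin-creERT2, against 2.01 to 26.0 CPM in the other 6 libraries. Spred1 was the only one of the 10 genes with that order. Whether these levels bear on the 10 genes was not tested.

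**Figure D4:**
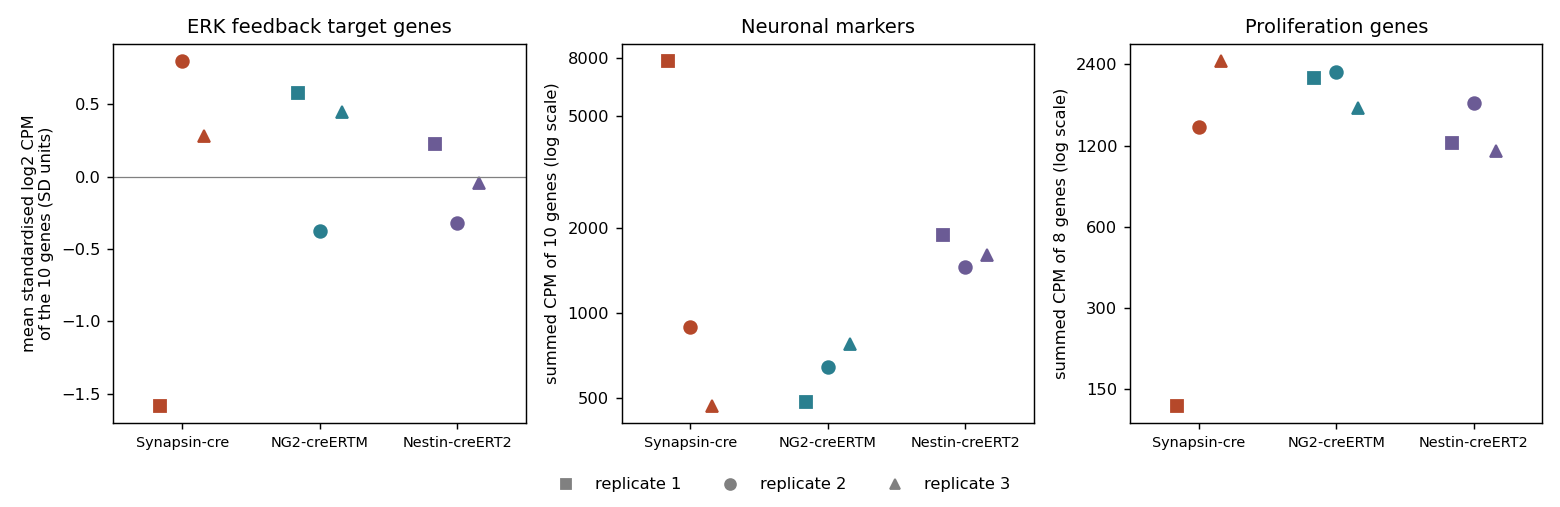
Per library of Synapsin-cre, NG2-creERTM and Nestin-creERT2: mean of the standardised log2 CPM of the 10 ERK feedback target genes (left, in SD units), summed CPM of 10 neuronal markers (middle, log axis) and summed CPM of 8 proliferation genes (right, log axis). Synapsin-cre replicate 1 is at -1.59, 7788 CPM and 129.8 CPM, and is the extreme library in each panel.

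Most pairs of the 10 genes were positively correlated over the 9 libraries. Over the 45 pairs the median Pearson r of log2 CPM was 0.55, with a range of -0.54 to 0.92 and 39 pairs positive, and 15 pairs had an adjusted p under 0.05 in exact permutation tests with Benjamini-Hochberg adjustment over the 45. Without Synapsin-cre replicate 1 the median was 0.42 and 32 pairs were positive, while 0 of the 45 passed over the remaining 8 libraries and the lowest adjusted permutation p was 0.232. The closest pair was Spry1 and Dusp6, with r = 0.92 (exact permutation p = 0.00143, adjusted 0.0321) and Spearman's rho = 0.88 (exact permutation p = 0.00308, adjusted 0.0406). Its r was 0.75 without Synapsin-cre replicate 1, and 0.63 without that library and Nestin-creERT2 replicate 3, the libraries farthest from the median of Spry1. Spry1 and Etv4 had r = 0.89 (exact permutation p = 0.00807, adjusted 0.0470) and rho = 0.67 (exact permutation p = 0.0589, adjusted 0.156), and an r of 0.55 both without Synapsin-cre replicate 1 and without the 2 farthest libraries. Spry1 and Spry2 had r = 0.86 (exact permutation p = 0.00132, adjusted 0.0321) and rho = 0.87 (exact permutation p = 0.00451, adjusted 0.0406). Their r was 0.84 without Synapsin-cre replicate 1 and 0.90 without the 2 farthest libraries. Dusp4 and Phlda1 had r = 0.87 (exact permutation p = 0.00257, adjusted 0.0385) and rho = 0.87 (exact permutation p = 0.00451, adjusted 0.0406). Their r was 0.83 without Synapsin-cre replicate 1 and 0.78 without the 2 farthest. None of these 4 pairs passed without Synapsin-cre replicate 1 after adjustment. Etv1, Spred1 and Etv5 had the lowest median r with the other 9 genes, at 0.15, 0.24 and 0.33, against 0.60 to 0.75 for the other 7. With Synapsin-cre replicate 1 left out the medians of Spred1 and Etv5 were -0.53 and -0.23, that of Etv1 was 0.27, and those of the other 7 were 0.42 to 0.64. Libraries of a model and of like tissue make-up are not independent points, so these values describe this set of tumours.

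Among 12559 genes with a mean of at least 2 CPM, those whose log2 CPM was most like the mean of the 10 genes over 9 libraries were Ccnd1 (r = 0.97), Basp1 (0.97), Hmga2 (0.97), Fbn1 (0.96) and Mzt1 (0.95). Ccnd1 encodes cyclin D1, which drives entry into the cell cycle and is itself an ERK output gene, and Hmga2 encodes a chromatin protein. Their r was 0.91, 0.92, 0.89, 0.85 and 0.92 without Synapsin-cre replicate 1, in the same order. Ranked over the 8 libraries without it, the 5 closest were Dnah2 (0.98), Ppl (0.97), Mmp14 (0.97), Kif13b (0.97) and Specc1 (0.95), and 0 of the 5 were shared. The closest gene to Phlda1 was Egr2, an immediate early transcription factor, with r = 0.97 with and without that library. Those closest to Spry1, Spry2 and Spry4 were Tpp2 (0.96), Pde12 (0.96) and Tanc1 (0.95). Grik4 was closest to Spred1 (0.96), Wdsub1 to Dusp4 (0.93), Palld to Dusp6 (0.96), Rabep2 to Etv1 (0.95), Usp37 to Etv4 (0.97) and Glmp to Etv5 (0.95). Over the 8 libraries the closest gene was the same for 2 of the 10, Etv1 and Phlda1, while Mta3 was closest to Spry1 (0.98), Lrch1 to Spry2 (0.96), Cxcl14 to Spry4 (0.98), Rab1b to Spred1 (0.97), Sorbs3 to Dusp4 (0.97), Olfml3 to Dusp6 (0.97), Trappc3 to Etv4 (0.98) and Slit2 to Etv5 (0.97). These are the highest of many values over 9 or 8 points, given as descriptions with no test.

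Other brakes, outputs and upstream genes of the pathway were read from 8 lists of 112 genes, of which 111 were tested and 0 passed in any comparison in edgeR's test of all 9 libraries. At an unadjusted p under 0.05 there were 14 in Synapsin-cre over NG2-creERTM (12.6%, against 12.8% of all genes), 14 in Synapsin-cre over Nestin-creERT2 (12.6%, against 10.8%) and 20 in NG2-creERTM over Nestin-creERT2 (18.02%, against 11.3%). Of the other Sprouty and Spred genes, Spred2 and Spred3 were measured and Spry3 was not analysed here. Spred3, like Spred1, was lower in NG2-creERTM (61.0, 33.0 and 45.3 CPM) than in Nestin-creERT2 (92.9, 81.2 and 83.7 CPM), without overlap, as were 14.2% of all genes. Its log2 fold change was -0.89 (SE 0.34), with an adjusted p of 0.399 in edgeR. Spred2 had 127, 86.8 and 72.5 CPM in NG2-creERTM and 222, 85.3 and 107 CPM in Nestin-creERT2, with overlap. Of 8 other Dusp genes, 6 had a positive log2 fold change in Synapsin-cre over NG2-creERTM (54.6% of all genes) and 7 in Synapsin-cre over Nestin-creERT2 (57.8%). In NG2-creERTM over Nestin-creERT2 there were 5 (50.9% of all genes). Dusp8, a phosphatase of JNK and p38 kinases, reached 199 CPM in Synapsin-cre replicate 1 and 53.8 and 35.7 CPM in replicates 2 and 3, against 33.4, 33.0 and 37.3 CPM in NG2-creERTM. Dusp9, which acts on ERK, stayed at 0.575 to 7.34 CPM in all libraries.

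Of 16 other ERK output genes, Il17rd, a receptor-like inhibitor of fibroblast growth factor signalling also called Sef, had 6.95, 11.3 and 9.80 CPM in the Synapsin-cre libraries, 16.7, 11.3 and 10.3 in NG2-creERTM, and 16.4, 27.1 and 47.8 in Nestin-creERT2. It was lower in Synapsin-cre than in Nestin-creERT2 without overlap, as were 6.26% of all genes. The log2 fold change was -1.70 (SE 0.47), with an adjusted p of 0.319 in edgeR. Phlda2, a relative of Phlda1, had 3.93 CPM in NG2-creERTM replicate 1 and 0.601 CPM or less in every other library. Of 12 further ETS factors or ETS-linked genes, Erg was higher in NG2-creERTM (36.0, 7.43 and 11.9 CPM) than in Nestin-creERT2 (5.88, 4.18 and 3.002 CPM), without overlap, as were 11% of all genes. Its log2 fold change was 2.08 (SE 0.62), with an adjusted p of 0.318 in edgeR. Gabpa was lower in Synapsin-cre (40.9, 57.5 and 47.7 CPM) than in NG2-creERTM (129, 62.8 and 83.2 CPM), at -0.91 (SE 0.36) and an adjusted p of 0.364 in edgeR. These models also did not overlap, as in 13.8% of all genes in either direction.

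In the cascade itself, of 21 genes, Rps6ka1, an ERK-activated kinase, was lower in Nestin-creERT2 (27.4, 13.7 and 23.2 CPM) than in any library of Synapsin-cre or NG2-creERTM (36.9 to 67.5 CPM). The share of all genes with that order is not given here. Its log2 fold change for NG2-creERTM over Nestin-creERT2 was 1.35 (SE 0.36), with an adjusted p of 0.304 in edgeR. Braf, which encodes a Raf kinase, had 145, 80.6 and 76.7 CPM in Synapsin-cre and 57.2, 55.7 and 44.0 CPM in NG2-creERTM, at 0.94 (SE 0.34) and an adjusted p of 0.357. Of 12 Ras-GAPs and other brakes, Nf1, the gene of neurofibromin, had 114.5, 185 and 108 CPM in Synapsin-cre. These lay above the other 6 libraries (45.8 to 102 CPM), an order whose share over all genes was not counted. The log2 fold change of Nf1 in Synapsin-cre over Nestin-creERT2 was 1.33 (SE 0.38), with an adjusted p of 0.329. Rasa2 had 123, 90.9 and 63.1 CPM in Synapsin-cre and 43.7, 38.6 and 52.6 CPM in Nestin-creERT2, at 1.04 (SE 0.32) and an adjusted p of 0.346 in edgeR. These models did not overlap, and the share of all genes that were higher in this way is not given here.

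Of 18 receptor tyrosine kinases and 22 ligands, Erbb3, a neuregulin receptor, had 79.0, 570 and 302 CPM in the Synapsin-cre libraries, 446, 143 and 874 in NG2-creERTM, and 2.85, 2.08 and 8.08 in Nestin-creERT2. Its log2 fold change of NG2-creERTM over Nestin-creERT2 was 6.81 (SE 1.07), with an adjusted p of 0.173 with all 9 libraries, 0.0350 without Synapsin-cre replicate 1 and 0.0354 with these 2 models alone. Erbb3 is also one of the Schwann and neural crest markers, whose sums differed between these models. Erbb2, its partner, had 36.4, 20.3 and 24.6 CPM in NG2-creERTM and 4.97, 3.66 and 4.31 CPM in Nestin-creERT2, at 2.65 (SE 0.48) and an adjusted p of 0.217, 0.0468 and 0.0388 in the same fits. Egfr had 15.9, 15.8 and 4.69 CPM in NG2-creERTM and 316, 193 and 1643 CPM in Nestin-creERT2, at -5.89 (SE 1.27) and an adjusted p of 0.244, 0.0460 and 0.0446. Kitl, the ligand of Kit, had 22.9, 33.8 and 37.3 CPM in NG2-creERTM and 97.2, 82.0 and 101 CPM in Nestin-creERT2, at -1.58 (SE 0.74) and an adjusted p of 0.468, 0.152 and 0.0446. Btc, a ligand of Egfr, had 4.11, 1.62 and 24.5 CPM in NG2-creERTM and 0.477 to 1.03 CPM in Nestin-creERT2, at 3.64 (SE 1.26) and an adjusted p of 0.364.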

How the data were processed

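Bulk RNA-seq of mouse glioblastoma tissue (total RNA, Qiagen RNeasy kit, Illumina library protocol, per the labels) was analysed as 3 models with 3 libraries each, grouped by the model in the labels. The deposited files hold read counts per gene, and the submitters' processing notes name STAR, HTSeq and the mouse build mm10 without versions. The files have the layout of STAR's gene count output, and the column of the strand that held nearly all reads was used, since the opposite strand held 3.25 to 3.64% of reads in genes. Of 46517 identifiers, 46005 matched GENCODE vM21 and 512 did not. The 4 summary lines were left out, and reads in no gene made up 17.9 to 27.3% of a library.

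CPM and log2 CPM (prior count 2) were computed here from the authors' counts with TMM factors. Genes kept by filterByExpr were tested with edgeR 4.0.16 in R 4.3.3 (glmQLFit and glmQLFTest, 2-sided, Benjamini-Hochberg over 17947 genes, threshold 0.05) in 1 fit of all 9 libraries, which had a common biological coefficient of variation of 0.612 (0.503 without Synapsin-cre replicate 1). The script was tested on simulated data. Alternatives were RLE and upper quartile factors, no filter, a filter of 1 CPM in 3 libraries, robust edgeR, limma 3.58.1 voom, DESeq2 1.42.0, unstranded counts, fits of 2 models and fits without each library. Fits of 2 models that also left out Synapsin-cre replicate 1 were added after seeing the data. The 10 genes, the pathway lists and the marker lists were chosen with earlier results of these data known. From each pathway list the 2 genes with the smallest p are named, as none passed, and genes most alike are the 5 closest to the mean and the closest to each gene by Pearson's r, without predicted, pseudogene or sex-linked genes. Genes outside this rule are marked where named. Correlations used exact permutation tests (scipy 1.17.1). Exon lengths came from GENCODE vM21, and promoter windows from RefSeq.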

Additional observations from a re-analysis of the deposited data

How the results depend on the processing

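Of 560 alternative log2 fold changes of the 10 genes, 519 kept their direction and side of the threshold, 40 reversed (29 with 1 library left out) and 1 came to pass, and 15 of 30 results never reversed. The cause was not tested. With all 9 libraries 0 genes were called in each comparison and in the test of any difference. For Synapsin-cre over NG2-creERTM, DESeq2 called 446 genes, fits without 1 library 0 to 1, and the 2 models without Synapsin-cre replicate 1 called 1. For Synapsin-cre over Nestin-creERT2, no filter gave 12, DESeq2 497, unstranded counts 1, the 2 models alone 5, fits without 1 library 0 to 273, and the 2 models without Synapsin-cre replicate 1 called 431 genes and 1 of the 10, Phlda1. For NG2-creERTM over Nestin-creERT2, no filter gave 12, DESeq2 623, the 2 models alone 237 and fits without 1 library 0 to 124. For any difference, no filter gave 23, DESeq2 868 and fits without 1 library 0 to 346. The highest count among fits without 1 library came in each case without Synapsin-cre replicate 1. Limma voom and DESeq2 called 0 of the 10 genes.

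Fold changes that reversed are given on the log2 scale as their range over fits without 1 library. For Synapsin-cre over NG2-creERTM, Spry1 ran from -0.74 to 0.26, Spry2 from -0.089 to 0.63, Spry4 from -1.67 to 0.12, Spred1 from -0.40 to 0.0066, Etv1 from -0.0075 to 0.76, Etv4 from -1.16 to 0.10 and Phlda1 from -0.29 to 1.22. For Synapsin-cre over Nestin-creERT2, Spry1 ran from -0.49 to 0.51, Spry2 from -0.22 to 0.56, Spry4 from -1.10 to 0.69, Dusp6 from -0.63 to 0.34 and Etv4 from -0.12 to 1.14. For NG2-creERTM over Nestin-creERT2, Spry2 ran from -0.50 to 0.36, Dusp4 from -0.23 to 1.49 and Etv5 from -0.77 to 0.12. With 2 models and without Synapsin-cre replicate 1, Spry1 (0.24), Spry4 (0.085) and Etv4 (0.081) in Synapsin-cre over NG2-creERTM and Dusp6 (0.34) in Synapsin-cre over Nestin-creERT2 were positive, where they were negative with all 9 libraries. In that comparison, Spry1 was -0.051 with upper quartile factors, -0.090 with no filter, -0.38 with voom and -0.054 with unstranded counts, Spry2 was -0.00025 with no filter and -0.029 with voom, and Spry4 was -0.080 with voom. No paired analysis was possible because the labels give no replicate numbers that models share. The replicate numbers used here follow the order of the samples and tie no libraries across models.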
